A study of Mus musculus with 16 samples.

Results

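This account follows 40 genes of the cell cycle in mouse bone marrow-derived macrophages that were exposed to thrombin, to resting platelets or to thrombin-activated platelets. They were taken by symbol from a table of 46320 genes. Among them, 11 encode cyclins and regulators of the G1 phase, 10 serve DNA replication and 19 act in G2 phase and mitosis. All 40 passed the filter on low counts, as did 15610 genes in all. The lowest count of any of the 40 in a library was 246. Marrow of C57BL6/J mice was grown for 7 days with 15% L929 conditioned medium, a source of the macrophage growth factor M-CSF. The cells were then kept for 4 hours in 0.5% serum and treated for 4 hours. The vehicle group received PBS. The thrombin group received this clotting protease alone, at a dose of 0.01 U/mL in the treatment protocol but 0.1 U/mL in the sample labels. The resting platelet group received platelets from C57BL6/J mouse blood, and the activated platelet group received platelets with thrombin, at 0.01 U/mL by the protocol. Each group had 4 libraries, numbered 1 to 4. No treatment was shared by all groups beyond the culture and the low serum. The RNA was read in bulk, so fewer cells of a type and less RNA per cell cannot be told apart. Growth rate, DNA content and protein were not measured in these data.

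Cells commit to division in G1, when D-type cyclins pair with the kinases CDK4 and CDK6 and phosphorylate the retinoblastoma protein. This frees E2F factors, which switch on cyclin E, the MCM helicase and the enzymes that make nucleotides. The inhibitors p21 (Cdkn1a) and p27 (Cdkn1b) restrain cyclin-dependent kinases. Later, cyclin A, cyclin B and CDK1 drive the cell into mitosis, and many genes of that stage share promoter elements bound by the DREAM and MuvB-FOXM1 complexes. Macrophages grown from marrow divide in response to M-CSF, for which cyclin D1 and Myc are classical growth-factor targets.

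Promoter sequences are shown for genes of the 3 roles because the 3 roles gave different counts of changed genes, described below. Whether promoter letters relate to those counts was not tested. The sequences come from RefSeq on GRCm38.p6, which had 34 promoters for 31 of the 40 genes. Each stretch runs 5′ to 3′ along the gene's strand over the 150 bases before its start. The mitosis genes are Cdk1 (chr10:69352913-69353062, minus strand), the kinase of mitotic entry, Cdc20 (chr4:118437344-118437493, minus strand), an activator of the anaphase-promoting complex, Kif11 (chr19:37376232-37376381, plus strand), a spindle motor, and Ube2c (chr2:164769779-164769928, plus strand), the ubiquitin-conjugating enzyme of that complex. The replication genes are Mcm6 (chr1:128359706-128359855, minus strand) and Mcm5 (chr8:75109359-75109508, plus strand), subunits of the helicase that opens DNA. The G1 genes are Cdk4 (chr10:127063385-127063534, plus strand) and Cdk6 (chr5:3343743-3343892, plus strand). Capitals mark the letters searched on both strands: the CCAAT box CCAAT, the cell cycle homology region TTTGAA or TTCGAA, the E2F letters TTTGGCGC or TTTCCCGC or TTTCGCGC or TTTGCCGC, and the E-box CACGTG. In Mcm6 the longest capital run holds 2 overlapping E2F matches on opposite strands.
Cdk1: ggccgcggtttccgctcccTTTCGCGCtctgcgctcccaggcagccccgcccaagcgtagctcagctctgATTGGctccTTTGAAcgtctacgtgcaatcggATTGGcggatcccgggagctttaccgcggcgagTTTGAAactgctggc
Cdc20: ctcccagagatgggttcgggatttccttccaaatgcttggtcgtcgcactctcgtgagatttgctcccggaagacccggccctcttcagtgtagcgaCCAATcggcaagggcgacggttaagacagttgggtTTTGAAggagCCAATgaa
Kif11: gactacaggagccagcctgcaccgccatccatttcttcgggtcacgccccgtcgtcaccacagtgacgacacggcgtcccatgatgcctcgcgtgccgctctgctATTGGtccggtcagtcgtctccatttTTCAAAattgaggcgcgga
Ube2c: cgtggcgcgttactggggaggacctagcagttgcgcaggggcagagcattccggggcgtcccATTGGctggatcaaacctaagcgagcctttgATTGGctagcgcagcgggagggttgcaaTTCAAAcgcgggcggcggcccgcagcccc
Mcm6: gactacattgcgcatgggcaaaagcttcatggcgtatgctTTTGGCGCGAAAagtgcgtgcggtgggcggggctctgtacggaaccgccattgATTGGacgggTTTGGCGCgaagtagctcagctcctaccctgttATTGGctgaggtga
Mcm5: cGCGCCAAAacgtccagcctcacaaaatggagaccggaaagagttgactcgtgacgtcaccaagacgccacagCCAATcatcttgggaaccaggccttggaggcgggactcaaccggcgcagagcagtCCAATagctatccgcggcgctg
Cdk4: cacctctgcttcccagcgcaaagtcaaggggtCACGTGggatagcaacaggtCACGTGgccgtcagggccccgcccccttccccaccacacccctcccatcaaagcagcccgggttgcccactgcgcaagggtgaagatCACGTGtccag
Cdk6: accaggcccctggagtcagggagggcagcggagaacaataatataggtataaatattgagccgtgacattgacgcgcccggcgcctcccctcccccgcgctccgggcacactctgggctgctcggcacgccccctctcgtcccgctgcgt

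The shares were counted over the full windows, from 250 bases before to 50 bases after the start. CCAAT letters lay in 14 of 15 mitosis promoters (93.3%) and in 9 of 10 replication promoters, against 2 of 9 G1 promoters and 37.4% of all 32851 promoters in the table. Letters of the cell cycle homology region lay in 12 of 15 mitosis promoters, 2 of 10 replication promoters and 0 of 9 G1 promoters, against 19.2% of all. The same 12 mitosis promoters held both elements, which 7.53% of all promoters did. E2F letters were in 4 of 10 replication promoters, 1 of 15 mitosis promoters and 2.27% of all. The E-box was in 2 of 9 G1 promoters, 1 of 10 replication promoters (Tyms), 0 of 15 mitosis promoters and 7.15% of all: Cdk4 held 4 copies, of which 3 are within the stretch printed, and Cdk6 held 1 copy, 220 bases before its start and outside that stretch. These are matches of letters and not measured sites.

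Library totals lay between 22.6 M and 30.6 M counts, and the 40 genes took 0.258% to 0.349% of them. Macrophage markers were abundant in every library, at 1.77% to 2.38% of counts for 9 genes. Transcripts of the Y-linked gene Ddx3y (85.0 to 93.1 CPM, counts scaled to 1000000 per library) and low Xist (0.0715 to 1.06 CPM) set replicate 1 of each group apart from replicates 2 to 4, where Ddx3y was at most 0.269 CPM and Xist at 1055 to 1291 CPM. Markers of stromal cells (10 genes such as Col1a1 and Dcn, all detected) took 0.643% to 0.781% of counts in replicates 1 and 4 and 0.326% to 0.451% in replicates 2 and 3. Platelet markers took 0.0222% ± 0.0022 (SD, n = 4) of counts with vehicle and 0.0405% ± 0.0021 with activated platelets (exact two-sided permutation p = 0.0286, the smallest that 4 against 4 allows; adjusted p = 0.137 over lists and comparisons). Pf4 made up most of the vehicle share, and without it the share was 0.00224% ± 0.00027 with vehicle, 0.00423% ± 0.00090 with resting and 0.0156% ± 0.0024 with activated platelets, both at an exact p of 0.0286 against vehicle. Erythroid markers were also higher with activated and with resting platelets, and the summed shares of lymphocyte and dendritic cell markers lower with activated platelets, each at the same exact p of 0.0286 and adjusted p of 0.137. Of 10 lymphocyte markers 3 passed the filter on low counts. With activated platelets against vehicle, edgeR called 1 of these lower, and log2 fold changes ran from -2.07 to 0.76. Of 8 dendritic cell markers 3 passed the filter, with 1 called lower and a range of -2.29 to 0.047. No full marker list passed the adjusted threshold in any group, as the lowest adjusted p was 0.137. For stromal, macrophage, neutrophil and mast cell markers the exact permutation p was at least 0.143. The permutation test does not use the replicate numbers. The macrophage share was 2.23% with vehicle, 2.16% with resting and 2.06% with activated platelets, lower than vehicle for all 4 replicate numbers in both. Of 9 macrophage markers, edgeR called 3 lower and 1 higher with activated platelets against vehicle, beside 13.6% and 12.2% of all genes. The stromal share was lower than vehicle for all 4 numbers with thrombin and with activated platelets. Without Col1a1, it was lower for 3 numbers and higher for 1 with thrombin, and lower for all 4 with activated platelets. These shares were measured per library, and their part in the results below was not tested.

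In vehicle libraries, the levels per kilobase of exon spanned a wide range. Highest was Pcna, the sliding clamp of DNA polymerases, at 148.6 ± 16.4 CPM per kb, then Cdkn1a at 122.3 ± 8.92 and Cdk4 at 83.4 ± 3.85. Next stood the mitotic genes Top2a (topoisomerase II alpha) at 45.2 ± 6.27, Ube2c at 44.7 ± 7.08 and Mki67 (the antigen Ki-67) at 36.3 ± 5.51. Differences between genes were not tested. Lowest were the cyclin E genes Ccne2 (6.59 ± 0.447) and Ccne1 (6.59 ± 0.966), Cenpf (a centromere protein, 3.83 ± 0.727) and Tyms (thymidylate synthase, 2.55 ± 0.329). Transcripts of every phase of the cycle were thus present after the hours in low serum.

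With activated platelets against vehicle, 7 of the 40 genes passed a false discovery threshold of 0.05: Cdk6, Ccnd1, E2f1 and Cdk4 fell, while Cdkn1a, Rrm2 and Mcm6 rose. By role, 4 of 11 G1 genes fell and 1 rose, 2 of 10 replication genes rose, and 0 of 19 mitosis genes passed in either direction. Over all genes tested, 12.2% were higher and 13.6% lower, so the counts of 3 and 4 among 40 were at or below that background. The median log2 fold change of the 40 was 0.042, beside -0.0040 for all genes. In a fit that also matched libraries by replicate number (the blocked fit), 9 of the 40 were higher and 7 lower, beside 20.0% and 22.5% of all genes. The additional ones were Ccne1, Mcm3, Mcm4, Mcm7, Cdk1 and Top2a, higher, and Ccnd2, Pcna and Foxm1, lower.

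**Figure D1:**
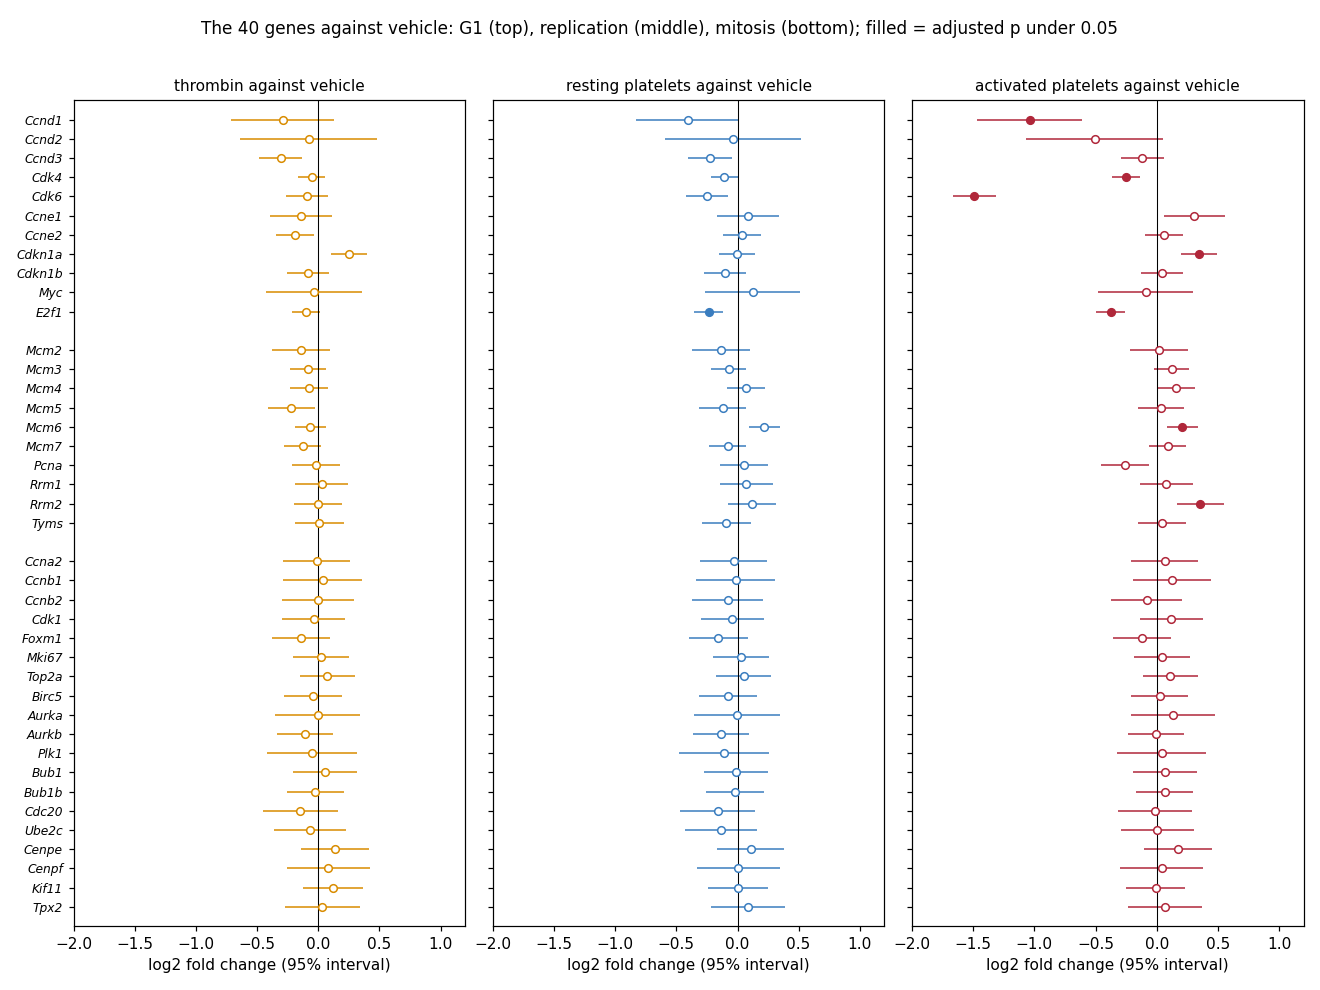
Log2 fold change of each of the 40 genes against vehicle with its 95% interval, for thrombin, resting platelets and activated platelets; filled points passed the threshold. The activated platelet panel has Cdk6 and Ccnd1 far to the left, while all 19 mitosis genes lie between -0.12 and 0.17.

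Cdk6, which encodes one of the 2 kinases that partner D-type cyclins, showed the largest change of the 40. In replicates 1 to 4 it stood at 105, 98.8, 96.6 and 100.2 CPM with vehicle and at 105, 98.5, 81.3 and 90.8 CPM with thrombin. The corresponding values were 84.8, 90.6, 80.2 and 82.0 CPM with resting platelets and 36.8, 39.4, 29.6 and 36.7 CPM with activated platelets. Every activated platelet library lay below every library of the other groups, and every resting platelet library lay below every vehicle library. The level fell 2.81-fold against vehicle, a log2 fold change of -1.49 ± 0.083 (SE) with an adjusted p of 4.77e-09 by edgeR's quasi-likelihood test. Against resting platelets the log2 fold change was -1.24 ± 0.083 (adjusted p = 1.32e-07), and against thrombin -1.40 ± 0.083 (adjusted p = 8.57e-09). With resting platelets against vehicle it was -0.25 ± 0.081 (adjusted p = 0.101; 4.94e-04 in the blocked fit and 0.0738 with a GC correction added). These comparisons share libraries and are set side by side for their sizes. Antisense transcripts Gm36470 and Gm29868 overlap the span of Cdk6 and stood at means of 0.801 CPM and 0.0357 CPM with vehicle.

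Its partner kinase Cdk4 changed in the same direction but by less. Vehicle replicates 1 to 4 had 121, 120.4, 110.3 and 122 CPM, and activated platelet replicates had 105, 92.8, 98.1 and 101 CPM. The highest activated library lay below the lowest vehicle library. The log2 fold change was -0.25 ± 0.053 (adjusted p = 0.00216). Thrombin libraries had 115, 108, 111 and 122 CPM and resting platelet libraries 110.2, 102, 110.2 and 118 CPM, and the latter overlapped both of the outer groups. The gene Tspan31, on the opposite strand, overlaps Cdk4 and had means of 97.3 CPM with vehicle and 101.8 CPM with activated platelets.

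**Figure D2:**
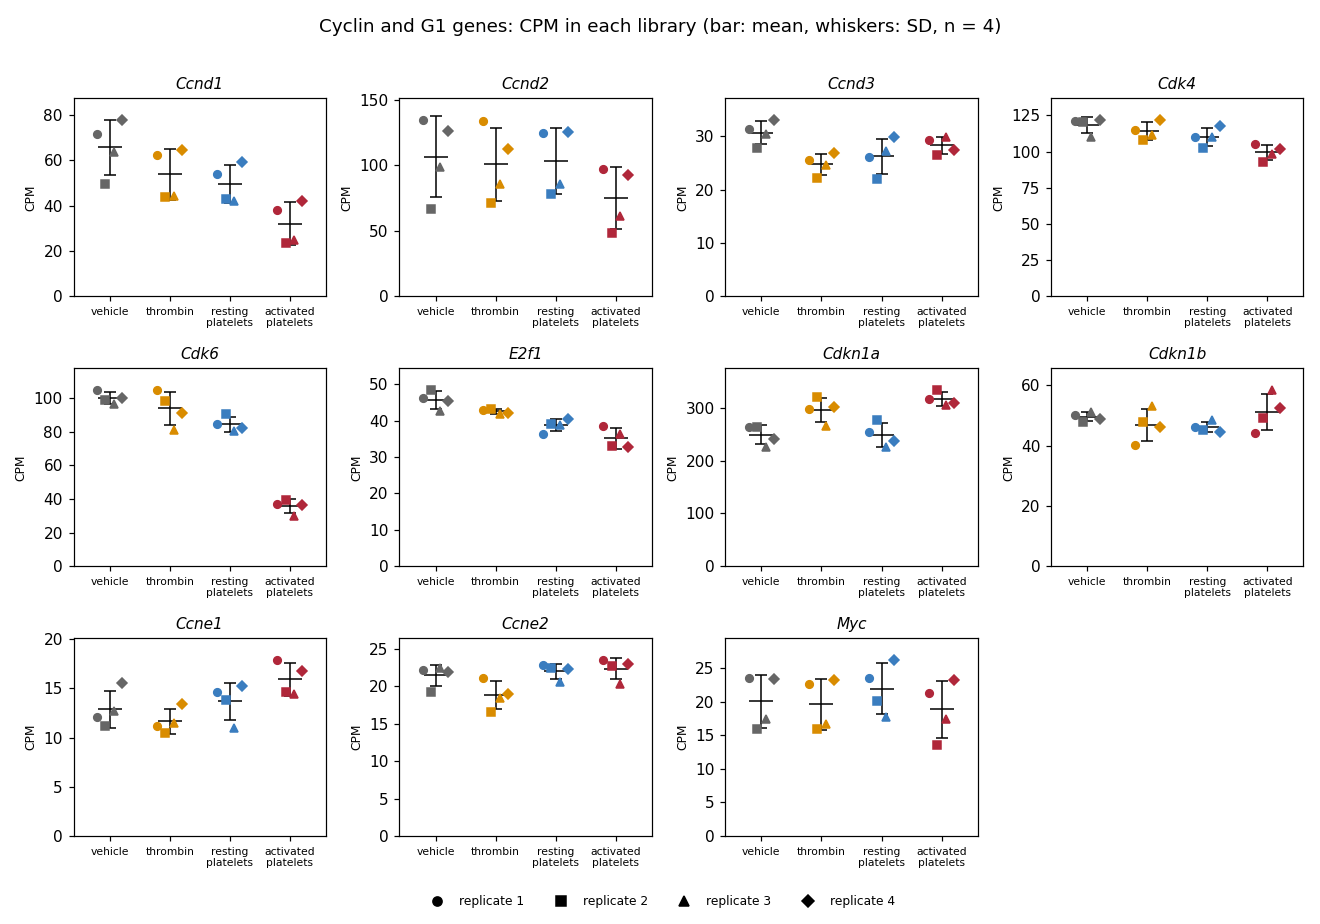
CPM of the 11 cyclin and G1 genes in each library by group, with symbols for replicate numbers, bars for means and whiskers for SD. Cdk6 in activated platelet libraries lies between 29.6 and 39.4 CPM, below the 80.2 CPM of the lowest library elsewhere, and replicates 1 and 4 have the highest Ccnd1 and Ccnd2 of each group.

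The cyclin D genes differed from one another. Ccnd1, cyclin D1, had 71.6, 49.6, 63.9 and 78.0 CPM in vehicle replicates 1 to 4, 62.3, 44.0, 44.2 and 64.8 CPM with thrombin, 54.0, 43.0, 42.1 and 59.1 CPM with resting platelets and 38.1, 23.4, 24.6 and 42.1 CPM with activated platelets. Activated platelet libraries lay below all vehicle libraries, and each was the lowest of its replicate number. Ccnd1 fell 2.05-fold against vehicle (log2 fold change -1.04 ± 0.20, adjusted p = 0.00121). Against thrombin it fell by 0.75 on the log2 scale (adjusted p = 0.0120; 0.0515 when genes of low count were kept). Against resting platelets the value was -0.63 ± 0.20 (adjusted p = 0.0447). That last call ended without any of 4 libraries: resting platelet replicate 1 (0.108) or 4 (0.118), or activated platelet replicate 2 (0.119) or 3 (0.125). It also ended with scaling by totals alone (0.0690), when genes of low count were kept (0.141) and in a fit of these 2 groups only (0.0922).

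Ccnd2, cyclin D2, had 135, 66.4, 98.4 and 126 CPM with vehicle and 97.6, 48.3, 61.6 and 92.4 CPM with activated platelets. The groups overlapped, yet the activated library was the lower one for all 4 replicate numbers. Its log2 fold change was -0.51 ± 0.26 (adjusted p = 0.181; 5.04e-07 in the blocked fit). With thrombin it had 134, 71.0, 85.9 and 112 CPM and with resting platelets 125, 78.3, 85.7 and 126 CPM, overlapping vehicle. Ccnd3, cyclin D3, had 31.3, 27.8, 30.4 and 33.1 CPM with vehicle and 29.3, 26.5, 29.8 and 27.5 CPM with activated platelets (log2 fold change -0.12 ± 0.083, adjusted p = 0.339).

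Both Ccnd1 and Ccnd2 were high in the replicates where stromal markers were high. Stromal markers took 0.781, 0.377, 0.440 and 0.680% of counts in vehicle replicates 1 to 4 and 0.720, 0.326, 0.390 and 0.644% in activated platelet replicates. Within replicate numbers, that share with activated platelets was 0.922, 0.864, 0.887 and 0.947 times the vehicle share. The group means did not pass (exact two-sided permutation p = 0.6), in a test that does not use the replicate numbers. Of 9 stromal markers tested by edgeR, 0 passed, and in the blocked fit 4 were lower and 1 higher. The blocked shares over all genes were 22.5% lower and 20.0% higher. Against resting platelets, 7 were lower and 1 higher in the blocked fit, beside 18.6% and 15.9% of all genes. The fall of Ccnd1 within the same replicate numbers was to 0.532, 0.471, 0.385 and 0.540 times vehicle. Without Col1a1, the share was 0.394% ± 0.133 with vehicle and 0.375% ± 0.1402 with activated platelets (SD, n = 4). What stromal cells add to these cyclin levels was not tested. The gene LTO1, on the strand opposite Ccnd1, had means of 23.0 CPM with vehicle and 23.5 CPM with activated platelets.

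**Figure D3:**
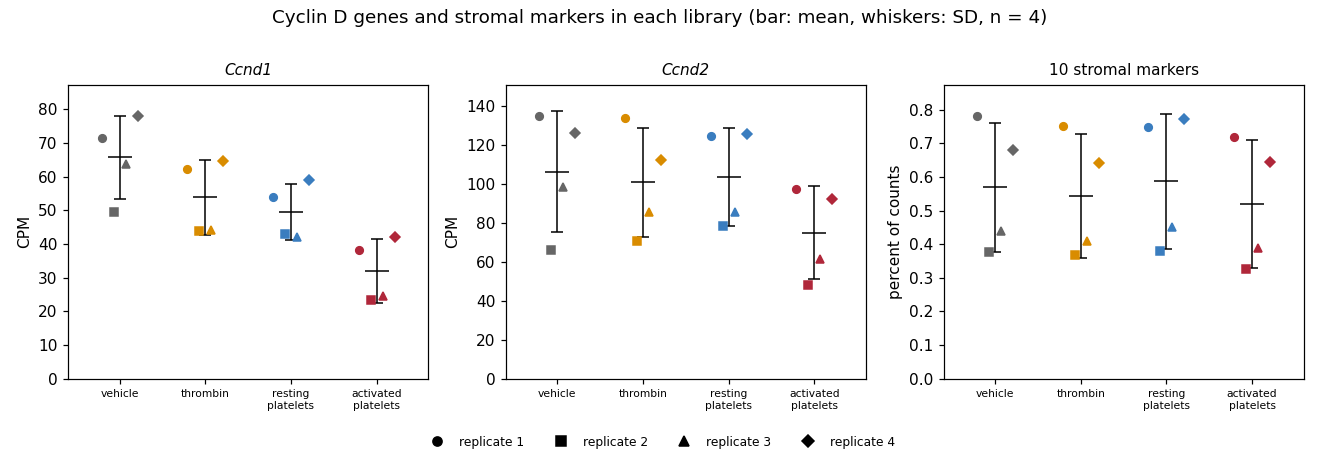
CPM of Ccnd1 and Ccnd2 and the percent of counts in 10 stromal markers in each library, with symbols for replicate numbers, bars for means and whiskers for SD. Replicates 1 and 4 are high in all 3 panels, and Ccnd1 in activated platelet libraries (23.4 to 42.1 CPM) lies below all vehicle libraries.

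E2f1, the activating E2F factor, had 46.2, 48.5, 42.6 and 45.3 CPM with vehicle and 38.5, 32.9, 36.4 and 32.7 CPM with activated platelets. The groups did not overlap, and E2f1 fell by 0.38 on the log2 scale (SE 0.054, adjusted p = 9.03e-05). It was also lower than with thrombin (42.9, 43.3, 41.9 and 42.2 CPM; log2 fold change -0.28 ± 0.055, adjusted p = 0.00140). The gene Necab3, on the same strand as E2f1 and overlapping it, had means of 0.995 CPM with vehicle and 1.19 CPM with activated platelets.

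Cdkn1a, the p21 inhibitor, had 264, 264, 227 and 242 CPM in vehicle replicates 1 to 4 and 317, 335, 305 and 310.1 CPM with activated platelets. Every activated library exceeded every vehicle library, a 1.27-fold rise (log2 fold change 0.35 ± 0.069, adjusted p = 0.00150). With thrombin alone it had 297, 320.2, 266 and 301 CPM, also above all vehicle libraries, but the log2 fold change of 0.25 ± 0.069 did not pass (adjusted p = 0.152; 8.60e-05 in the blocked fit). Resting platelet libraries had 254, 277, 226 and 237 CPM and overlapped vehicle. Activated platelet libraries exceeded resting ones (0.35 ± 0.069, adjusted p = 0.00278) and differed from thrombin by 0.096 ± 0.069 (95% interval -0.051 to 0.24, adjusted p = 0.348; 0.0155 in the blocked fit and 0.118 with a GC correction added). The other inhibitor, Cdkn1b, had means of 49.6 ± 1.47 CPM with vehicle and 51.1 ± 6.04 CPM with activated platelets (log2 fold change 0.044 ± 0.080, 95% interval -0.13 to 0.21).

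The cyclin E genes, which act after the D cyclins, were higher with activated platelets than with thrombin. Ccne1 had 12.1, 11.2, 12.7 and 15.6 CPM with vehicle and 17.9, 14.7, 14.4 and 16.7 CPM with activated platelets, higher for all 4 replicate numbers although the groups overlapped. Its log2 fold change was 0.31 ± 0.12 (adjusted p = 0.0683; 0.00208 in the blocked fit). Thrombin libraries had 11.2, 10.5, 11.5 and 13.4 CPM, all below the activated libraries, and against them Ccne1 rose by 0.45 ± 0.12 (adjusted p = 0.0104; 0.107 without replicate 1 of all groups). Ccne2 had 21.2, 16.6, 18.5 and 18.98 CPM with thrombin and 23.6, 22.7, 20.3 and 22.9 CPM with activated platelets (0.25 ± 0.072, adjusted p = 0.0175; 0.0598 without thrombin replicate 2). With vehicle it had 22.2, 19.3, 22.5 and 22.0 CPM, and activated platelets differed from that by 0.060 ± 0.072 (adjusted p = 0.599). Myc, the growth-factor target, had 23.5, 15.95, 17.3 and 23.3 CPM with vehicle and 21.2, 13.5, 17.4 and 23.2 CPM with activated platelets. Its log2 fold change of -0.091 ± 0.18 carried a 95% interval of -0.48 to 0.30, and in every group replicates 1 and 4 were above replicates 2 and 3.

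Among replication genes, Rrm2 rose most with activated platelets. It encodes the regulated subunit of ribonucleotide reductase, the enzyme that makes deoxyribonucleotides. Its values were 69.5, 67.0, 72.7 and 84.6 CPM with vehicle, 77.2, 59.8, 73.1 and 83.7 CPM with thrombin, 83.4, 74.5, 74.8 and 86.0 CPM with resting platelets and 94.4, 89.1, 90.6 and 102 CPM with activated platelets. All activated libraries exceeded all others, with a log2 fold change against vehicle of 0.36 ± 0.092 (adjusted p = 0.00913). That call ended when replicate 1 of all groups (0.0796) or replicate 3 of all groups (0.0546) was left out, though with no single library. The large subunit, Rrm1, had means of 135 ± 15.4 CPM with vehicle and 142 ± 12.1 CPM with activated platelets (log2 fold change 0.079 ± 0.10, 95% interval -0.14 to 0.29).

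Mcm6, a subunit of the replicative helicase, rose with activated platelets. It had 96.7, 104, 99.1 and 107 CPM with vehicle and 103, 92.7, 92.7 and 99.0 CPM with thrombin. With platelets it reached 123, 127, 106 and 117 CPM when they were at rest and 113, 118, 110.2 and 128 CPM when they were activated. Activated libraries exceeded all vehicle libraries (0.21 ± 0.059, adjusted p = 0.0157), but the call ended without vehicle replicate 1 (0.0522) or activated platelet replicate 4 (0.0612). Resting platelets gave 0.22 ± 0.060 against vehicle (adjusted p = 0.0555; 9.18e-04 in the blocked fit), and the 2 platelet groups differed by -0.0090 ± 0.059 (95% interval -0.13 to 0.12). Against vehicle, the other MCM genes had log2 fold changes of 0.021 (Mcm2), 0.12 (Mcm3), 0.16 (Mcm4), 0.038 (Mcm5) and 0.092 (Mcm7), none of which passed.

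Pcna stood apart from the other replication genes, as the one with a negative log2 fold change. It had 182, 216, 167 and 185 CPM with vehicle and 158, 170.4, 146 and 153 CPM with activated platelets, lower for all 4 replicate numbers, although activated replicate 2 overlapped vehicle replicate 3. The difference was -0.26 ± 0.092 (adjusted p = 0.0510; 2.76e-06 in the blocked fit). Resting platelet libraries had 197, 227, 181 and 172 CPM, all above the activated ones, and Pcna fell between those groups by 0.31 on the log2 scale (SE 0.092, adjusted p = 0.0308). This call ended without resting platelet replicate 1 (0.0695) or 2 (0.102), without activated platelet replicate 1 (0.0743), 3 (0.0861) or 4 (0.0794), and when genes of low count were kept (0.0531). Tyms, which makes thymidylate, had means of 19.01 ± 2.45 and 19.6 ± 0.872 CPM with vehicle and activated platelets (0.043 ± 0.092).

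**Figure D4:**
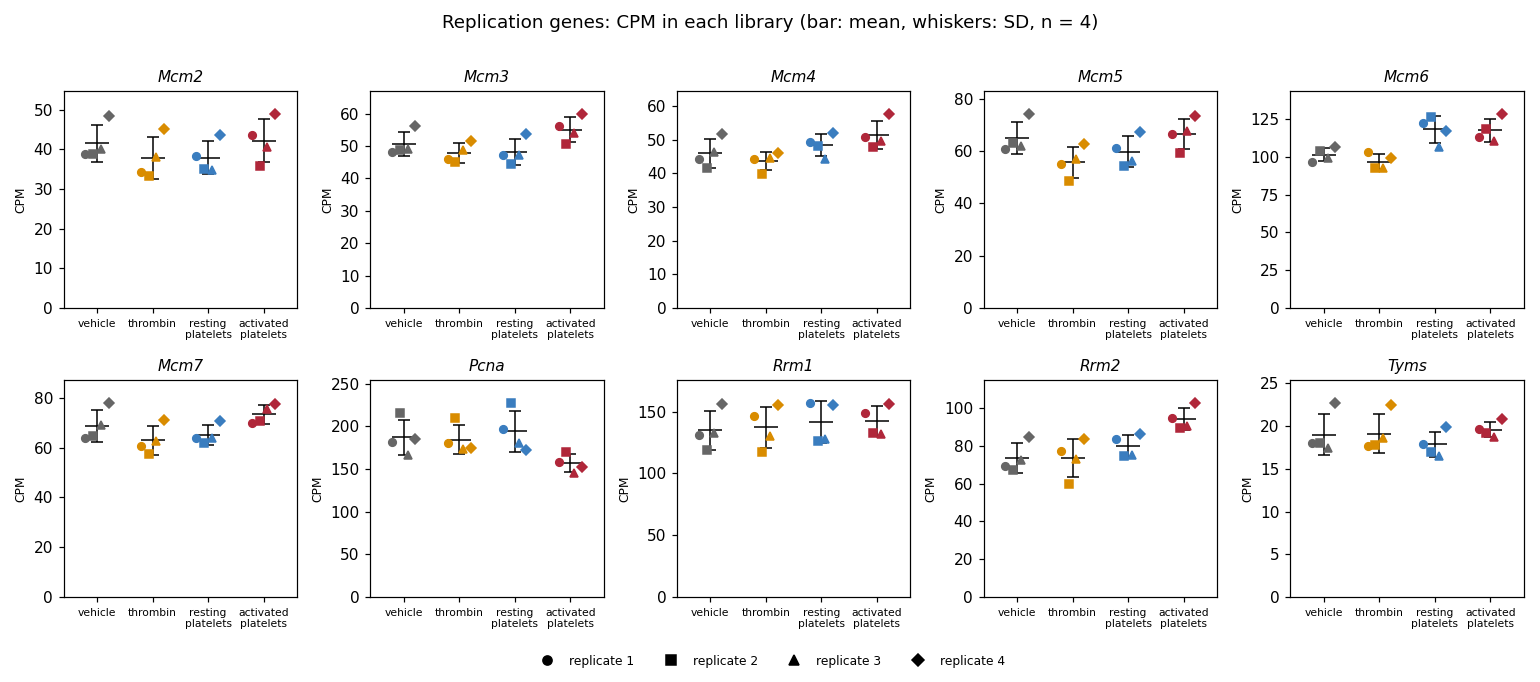
CPM of the 10 replication genes in each library by group, with symbols for replicate numbers, bars for means and whiskers for SD. Rrm2 is highest in the 4 activated platelet libraries (89.1 to 102.4 CPM), Pcna is lowest there (146 to 170.4 CPM), overlapping vehicle and no other group, and Mcm6 reaches its highest values in both platelet groups.

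No mitosis gene passed in any of the 6 comparisons by edgeR, DESeq2 or limma-voom without the block, and 0 of 19 had an unadjusted p under 0.05. With activated platelets against vehicle, their log2 fold changes ran from -0.12 (Foxm1, a transcription factor for this stage) to 0.17 (Cenpe, a kinetochore motor). Standard errors were 0.11 to 0.17, and all 95% intervals lay within -0.37 to 0.48. Cdk1 had 53.2, 51.2, 58.8 and 66.8 CPM with vehicle and 63.3, 54.9, 63.6 and 68.3 CPM with activated platelets, higher for all 4 replicate numbers with overlapping groups (0.12 ± 0.12, adjusted p = 0.511; 0.0169 in the blocked fit). Mki67 had 331, 321, 397 and 441 CPM with vehicle and 370.3, 361, 389.7 and 412 CPM with activated platelets (0.040 ± 0.11). In the blocked fit Top2a (0.0336) was also higher and Foxm1 (0.0282) lower, and all intervals there lay within -0.21 to 0.35. The blocked fit also called Cdk1, Aurka and Cdc20 higher than with thrombin, and Cdk1, Cdc20 and Ube2c higher than with resting platelets. Over all genes, that fit called 19.6% higher than with thrombin and 15.9% higher than with resting platelets. The mitosis genes varied together by replicate number, as described below, so they are not separate observations. With the GC correction added, Cdc20 did not pass in either comparison (0.147 and 0.139), nor Ube2c (0.104). The sum of the 19 genes was 1405 ± 213 CPM (SD, n = 4) with vehicle and 1460 ± 107 CPM after activated platelets. It was 1423 ± 222 CPM after thrombin and 1403 ± 149 CPM after resting platelets. These SDs include the differences between replicate numbers described below, so they cannot gauge a treatment difference. In replicates 1 to 4, the sum with activated platelets was 1.131, 1.103, 1.010 and 0.949 times that of the same-numbered vehicle library. It was 1.119, 0.939, 0.999 and 0.999 times vehicle with thrombin and 1.142, 1.002, 0.945 and 0.934 times vehicle with resting platelets. Each group thus had ratios on both sides of vehicle, and these sums were not tested.

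The larger differences among mitosis genes ran along the replicate number. Replicate 4 had the highest level of the 4 libraries for 19 of 19 genes in the vehicle, thrombin and resting platelet groups and for 18 in the activated platelet group. Replicate 2 had the lowest for 16, 19, 19 and 18 genes. The median ratio of replicate 4 to replicate 2 was 1.38, 1.53, 1.33 and 1.25 in the same order of groups. Their median coefficient of variation was 15.7%, 17.3%, 12.7% and 9.68% in that order, and whether these spreads differ was not tested. Replication genes kept the order less fully, with replicate 4 highest for 9, 8, 7 and 9 of 10 genes. G1 genes showed no such single order, with replicate 4 highest for 4, 5, 7 and 2 of 11. What a replicate number marks is not labelled.

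**Figure D5:**
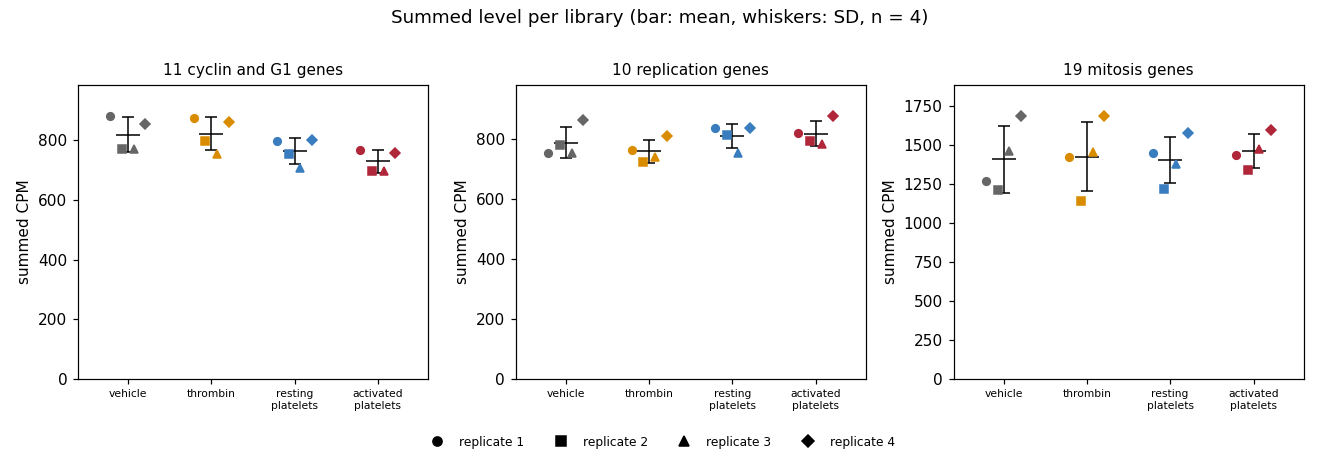
Summed CPM of the 11 G1 genes, 10 replication genes and 19 mitosis genes in each library, with symbols for replicate numbers, bars for means and whiskers for SD. For the mitosis genes, replicate 4 is on top and replicate 2 at the bottom in all 4 groups, from 1138 to 1682 CPM, while the group means differ little.

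Thrombin alone changed none of the 40 genes past the threshold by edgeR. An unadjusted p under 0.05 was met by 1 rising and 3 falling genes of the 40, beside 865 rising and 921 falling of all 15610. DESeq2 and limma-voom also called 0 of the 40. Over all genes, 0.0897% were higher and 0.199% lower past the adjusted threshold by edgeR. In the blocked fit 1 of the 40 was higher, Cdkn1a, and 6 were lower: Ccnd1, Ccnd3, Ccne2, Mcm5, Mcm7 and Foxm1. The blocked shares over all genes were 3.91% and 4.32%. Ccnd3 had 25.5, 22.1, 24.7 and 26.8 CPM with thrombin, all below the vehicle libraries, which gave -0.31 ± 0.084 (adjusted p = 0.150; 0.00119 in the blocked fit). Mcm5 had 60.9, 63.2, 61.9 and 74.1 CPM with vehicle and 55.1, 48.5, 56.9 and 62.9 CPM with thrombin, lower for all 4 replicate numbers (-0.22 ± 0.089, adjusted p = 0.354; 0.00285 in the blocked fit). Across genes, log2 fold changes with thrombin ran against GC content (Spearman rho -0.45, over 93.5% of tested genes that share these libraries). With a GC correction added to the block, 5 of the 40 passed, and Ccnd1 (0.200) and Foxm1 (0.187) no longer did.

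Resting platelets lowered E2f1 and no other of the 40 passed the threshold. E2f1 had 36.5, 39.0, 38.8 and 40.6 CPM, below all vehicle libraries (-0.24 ± 0.055, adjusted p = 0.0287). The call ended without vehicle replicate 1 (0.0703), 2 (0.0903) or 4 (0.0559), without resting platelet replicate 1 (0.101) or 2 (0.0691), and with only these 2 groups fitted (0.0622). Without resting platelet replicate 3, 2 of the 40 passed. Fits that left out 1 library called 208 to 550 of all genes, beside 529 with all libraries. The background with all libraries was 2.07% higher and 1.32% lower. That split of 323 higher against 206 lower genes became 277 against 423 when libraries were scaled by totals alone. In the blocked fit, 1 of the 40 was higher (Mcm6) and 8 were lower (Ccnd1, Ccnd3, Cdk4, Cdk6, E2f1, Mcm5, Foxm1 and Cdc20), beside 10.9% and 10.6% of all genes. With the GC correction added, 4 passed: Ccnd1 (0.0162), E2f1 (0.0308), Mcm6 (0.00137) and Myc (0.0332), the last of them higher.

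Compared with thrombin instead of vehicle, activated platelets gave more calls among replication genes. Of the 40, 8 were higher and 4 lower, against a background of 11.9% and 13.5% of all genes. The lower ones were Cdk6, Ccnd1, Cdk4 and E2f1, as against vehicle, a comparison that shares the activated libraries. The higher ones were Ccne1, Ccne2, Rrm2 and Mcm3 to Mcm7. In the blocked fit the counts were 14 and 6, against 19.6% and 22.0%. Mcm6 had the firmest call of the helicase genes (0.28 ± 0.060, adjusted p = 0.00259), and all its activated libraries lay above all thrombin libraries. Rrm2 differed by 0.36 ± 0.092 (adjusted p = 0.00927).

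The other helicase genes were nearer the threshold. Mcm4 had 44.3, 39.9, 44.5 and 46.0 CPM with thrombin and 50.7, 47.8, 49.6 and 57.5 CPM with activated platelets, without overlap (0.24 ± 0.073, adjusted p = 0.0257). Its call ended without thrombin replicate 2 (0.0817) or activated platelet replicate 4 (0.0776). Mcm3 (0.20 ± 0.069, adjusted p = 0.0386), Mcm5 (0.26 ± 0.089, 0.0450) and Mcm7 (0.22 ± 0.072, 0.0331) were higher for all 4 replicate numbers with overlapping groups. Each of these calls ended without thrombin replicate 1, 2 or 3, or activated platelet replicate 3 or 4, and those of Mcm3 and Mcm5 also without activated platelet replicate 1. Adjusted p values in those fits were 0.0568 to 0.108 for Mcm3, 0.0710 to 0.138 for Mcm5 and 0.0685 to 0.102 for Mcm7. With libraries scaled by totals alone, Mcm3 (0.0814), Mcm4 (0.0582), Mcm5 (0.0843) and Mcm7 (0.0707) did not pass, nor did Mcm5 when genes of low count were kept (0.0677). Leaving out thrombin replicate 2 lowered the count of the 40 called from 12 to 7, and leaving out activated platelet replicate 4 lowered it to 8. Over all genes, fits that left out 1 library gave 3220 to 3798 calls in this comparison, beside 3960 with all libraries.

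Between the 2 platelet preparations, Cdkn1a was higher with activation and Cdk6, Ccnd1 and Pcna were lower. This is 1 higher and 3 lower of 40, against 7.34% and 8.49% of all genes. In the blocked fit 11 were higher and 7 lower, beside 15.9% and 18.6%. Those 18 included Myc, which had 23.6, 20.1, 17.7 and 26.2 CPM with resting and 21.2, 13.5, 17.4 and 23.2 CPM with activated platelets, lower for all 4 replicate numbers (-0.22 ± 0.18, adjusted p = 0.477; 0.00776 in the blocked fit). The count fell from 4 to 2 without resting platelet replicate 1 or activated platelet replicate 3. It also fell to 2 without replicate 1 or replicate 3 of all groups. Over all genes, fits that left out 1 library gave 1799 to 2256 calls here. Fits that left out a replicate number gave 972 to 1952, beside 2472 with all libraries.

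The interaction asks whether thrombin had a different effect with platelets present than without them. It passed for 2 of the 40 genes, Cdk6 and Ccnd3. For Cdk6 the thrombin effect was -1.24 with platelets and -0.094 without, a difference of -1.15 ± 0.12 (adjusted p = 2.90e-05). For Ccnd3 it was 0.11 with platelets and -0.31 without, a difference of 0.42 ± 0.12 (adjusted p = 0.0364). The Ccnd3 call ended in 9 of the 16 fits that left out a library: vehicle replicate 1 or 4, thrombin replicate 1, 2 or 3, resting platelet replicate 1 or 2, or activated platelet replicate 1 or 3 (0.0533 to 0.0749). It also ended with libraries scaled by totals alone (0.0604). Over all genes, 4.56% had a positive and 5.37% a negative interaction that passed. Without thrombin replicate 4, or without resting platelet replicate 4, 5 of the 40 passed, as they did without replicate 4 of all groups, and 3 passed without activated platelet replicate 2. In the blocked fit 13 of the 40 were positive and 4 negative, beside 13.1% and 15.9% of all genes. Positive ones there included Mcm2, Mcm3, Mcm5 and Mcm7, whose level was lower with thrombin than with vehicle for all 4 replicate numbers, and the mitosis genes Cdk1, Foxm1, Aurkb, Cdc20 and Ube2c. With the GC correction added, Mcm2 (0.101), Foxm1 (0.220), Aurkb (0.0701), Cdc20 (0.0517) and Ube2c (0.177) did not pass. Equal thrombin doses in both groups are assumed here, which the labels do not settle.

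Results were also read without replicate 1 of each group, which stood apart by Ddx3y and Xist. Against vehicle, Cdk6 (5.38e-06), Ccnd1 (0.0177), E2f1 (8.09e-04), Cdk4 (0.0204) and Cdkn1a (0.0161) still passed with activated platelets, while Mcm6 (0.0643) and Rrm2 did not. Against thrombin, Cdk6 (1.03e-05), E2f1 (0.00499), Ccne2 (0.0232), Mcm6 (0.00788) and Rrm2 (0.0474) passed, 5 in place of 12. Those that no longer passed included Ccnd1 (0.0811) and Cdk4 (0.0552). Against resting platelets, Cdk6 (8.14e-05) and Cdkn1a (0.0391) passed, and in the interaction Cdk6 (0.00377) alone did. Other numbers left out of all groups ended further calls against thrombin, for Ccnd1 (0.0560) and Rrm2 (0.0573) without replicate 3, Ccne2 without replicate 2 (0.0784), and Cdk4 (0.0543) and Ccne2 (0.0961) without replicate 4. Against vehicle, Mcm6 did not pass without replicate 4 (0.0815). All values in parentheses are adjusted p from edgeR fits with 3 libraries a group.

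Further genes of the same pathways were counted with activated platelets against vehicle. The shares over all genes, to set these counts against, were 12.2% higher and 13.6% lower, and 20.0% and 22.5% in the blocked fit. Of 15 genes for E2F factors and pocket proteins, 1 rose and 2 fell. The riser was E2f2, an activating E2F, from 35.0 ± 2.59 to 52.9 ± 2.59 CPM (0.60 ± 0.059, adjusted p = 1.94e-06), opposite to E2f1. Those that fell were Rb1, the retinoblastoma gene (-0.30 ± 0.063, 0.00217), and Tfdp2, an E2F partner (-0.28 ± 0.049, 5.16e-04). Of 39 other replication genes, 3 rose and 4 fell, among them Fen1, the flap endonuclease (0.31 ± 0.070, 0.00377), and Gins3 (0.33 ± 0.086, 0.00989), upward, and the clamp loader genes Rfc1 (-0.24 ± 0.042, 5.61e-04) and Rfc2 (-0.19 ± 0.045, 0.00560), downward. Of 47 other mitosis genes, 0 passed by edgeR, where 1 had an unadjusted p under 0.05, and 9 were higher in the blocked fit. Their median log2 fold change was 0.060.

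Genes that restrain growth moved in both directions. Of 18 p53 pathway genes, 6 rose and 4 fell with activated platelets against vehicle, beside 12.2% and 13.6% of all genes. Plk3, a stress-responsive polo-like kinase, rose from 7.38 ± 0.929 to 21.6 ± 2.83 CPM (1.54 ± 0.11, adjusted p = 5.83e-08), and Btg2, an antiproliferative gene, rose by 0.53 ± 0.085 (2.36e-04). Sesn1, a sestrin, fell from 133 ± 6.92 to 47.1 ± 4.79 CPM (-1.50 ± 0.095, 1.80e-08), and Bbc3, which encodes the death protein PUMA, fell by 0.48 on the log2 scale (2.44e-04). Of 10 antiproliferative and quiescence genes 3 rose and 3 fell, to be read against the same shares, with Btg1 (0.92 ± 0.091, 1.94e-06) upward and Klf2 (-0.99 ± 0.16, 3.14e-04) and Foxo3 (-0.40 ± 0.079, 0.00136) downward.

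Of 9 Myc network genes tested, 1 rose and 4 fell, where 12.2% of all genes rose and 13.6% fell. Mxi1, a Myc antagonist, rose from 48.2 ± 6.31 to 82.1 ± 6.24 CPM (0.77 ± 0.10, adjusted p = 4.87e-05), whereas the related Mxd4 fell from 53.8 ± 3.29 to 31.9 ± 2.10 CPM (-0.75 ± 0.065, 4.40e-07). Max, the shared partner, fell by 0.19 on the log2 scale (0.0229). Of 19 other kinase and inhibitor genes, Cdk7 rose (0.19 ± 0.047, 0.00686) and Cdkn2b, the p15 inhibitor of CDK4 and CDK6, fell (-0.82 ± 0.29, 0.0449), from a low level of 4.75 ± 1.61 CPM. Among 7 growth factor genes, Csf1, which encodes M-CSF, rose (0.81 ± 0.21, 0.00890), as did the receptor chain Csf2rb (0.78 ± 0.16, 0.00167).

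Against resting platelets, 16 genes of the 8 lists passed, where 7.34% of all genes were higher and 8.49% lower. Tested were 15 E2F, 19 kinase and inhibitor, 39 replication, 47 mitosis, 9 Myc network, 18 p53, 10 antiproliferative and 7 growth factor genes. Against vehicle, 35 genes of the lists passed, beside 12.2% higher and 13.6% lower over all genes. In the blocked fit 61 passed against vehicle, beside 20.0% and 22.5% of all genes. Against resting platelets 78 passed in that fit, beside 15.9% and 18.6%. Without the block, rises against resting platelets were seen for E2f2 (0.46 ± 0.059, adjusted p = 7.13e-05), Fen1 (0.35 ± 0.071, 0.00317), Mxi1 (0.74 ± 0.10, 1.82e-04), Plk3 (0.77 ± 0.11, 1.48e-04), Bax (0.16 ± 0.043, 0.0175), Btg1 (0.50 ± 0.090, 0.00128) and Csf2rb (0.54 ± 0.16, 0.0286). Falls were seen for Rb1 (-0.35 ± 0.063, 0.00125), Tfdp2 (-0.16 ± 0.049, 0.0363), Rfc1 (-0.16 ± 0.042, 0.0200), Mxd4 (-0.47 ± 0.065, 1.36e-04), Sesn1 (-1.11 ± 0.095, 1.63e-06), Plk2 (-0.69 ± 0.20, 0.0279) and Klf2 (-0.62 ± 0.17, 0.0187). For the pathway lists with thrombin against vehicle, 0 genes passed by edgeR and 17 in the blocked fit, beside 3.91% higher and 4.32% lower over all genes in that fit. With resting platelets against vehicle, 8 passed, beside 2.07% and 1.32% of all genes, and 38 in the blocked fit, beside 10.9% and 10.6%.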

How the data were processed

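Each of 16 libraries was read by RNA sequencing of mouse macrophages. The authors deposited a table of estimated counts per gene, of which 25.5% of values above 0 were not whole. The tools named per the submitters' processing notes are STAR 2.7.2b, featureCounts 1.6.4, Subread and cutadapt 2.5, and the builds GRCm39 and mm10. How strand and multiply mapped reads were handled is not given in the sources used here. Values were rounded, although whole counts had been assumed, and the summed absolute change was 0.0073% of the total counts. Among the 40 genes, 15 overlap the span of another gene, and reads of these may be shared.

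Genes were filtered with filterByExpr, scaled by TMM and tested in edgeR 4.0.16 (R 4.3.3) with a robust quasi-likelihood fit of 4 groups and 16 libraries. P-values were adjusted by Benjamini-Hochberg over 15610 genes, with a threshold of 0.05. The tests without the block were checked on simulated data, which were drawn without differences between replicate numbers. Alternatives used other scalings and filters, DESeq2 1.42.0, limma-voom (limma 3.58.1), a replicate block with and without a GC correction, and libraries left out. Marker shares were tested by exact permutation over 70 arrangements. The sources do not tell whether replicates were separate mice or cultures, so the p-values describe library-to-library spread, and how much of it is technical is not known. Replicate 1 differs from the others in Ddx3y and Xist in every group.

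Same-numbered libraries deviated together (r 0.290 to 0.617 over 24 pairs, others -0.436 to 0.253), and 16 of 16 libraries matched their own number best. This pairing comes from the data, and what a number marks is not labelled.

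The members and lists were chosen with earlier results of these data known. Members that passed in any comparison are given by library. Of each pathway list, up to 2 rising and 2 falling genes with the smallest p are named, for activated platelets against vehicle and against resting platelets. One gene that this rule names is not reported here.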

Additional observations from a re-analysis of the deposited data

Results flagged for a closer look

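In 6 of 160 sets of 4 libraries, 1 library lay far from the other 3, and chance flags about 1 in 20 such sets. Cdk4 in vehicle replicate 3 was low, at 110.3 CPM beside 120.4 to 121.9 CPM. Ccne2 in vehicle replicate 2 was low, at 19.3 CPM beside 22.0 to 22.5 CPM. Vehicle replicate 4 was high for Mcm2 (48.5 CPM beside 38.8 to 40.2), Mcm3 (56.2 CPM beside 48.3 to 49.1) and Tyms (22.7 CPM beside 17.4 to 18.0). Cenpe in activated platelet replicate 4 was high, at 76.6 CPM beside 68.7 to 68.9 CPM.

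The effect of thrombin differed with and without platelets for Cdk6, by -1.15 on the log2 scale, and for Ccnd3, by 0.42, both by the interaction term in edgeR. The call for Ccnd3 (adjusted p = 0.0364) ended in 9 of 16 fits that left out a library, with scaling by totals alone (0.0604) and without replicate 1 (0.231) or replicate 3 (0.162) of all groups.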

How the results depend on the processing

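Matching libraries by replicate number (the replicate block) raised the counts of calls. For thrombin against vehicle, 45 genes became 1285 and 0 of the 40 became 7 (443 and 5 with a GC correction). For resting platelets, 529 became 3360 and 1 became 9 (2602 and 4). For activated platelets against vehicle, 4031 became 6635 and 7 became 16 (6899 and 17), and against thrombin 3960 became 6499 and 12 became 20 (6707 and 21). For activated against resting platelets, 2472 became 5391 and 4 became 18 (5357 and 21), and for the interaction 1550 became 4535 and 2 became 17 (3588 and 19). The pathway lists had 17, 38, 61, 76, 78 and 73 calls with the block in the same order. Over all genes, the blocked shares in that order were 3.91%, 10.9%, 20.0%, 19.6%, 15.9% and 13.1% higher. The shares lower were 4.32%, 10.6%, 22.5%, 22.0%, 18.6% and 15.9%. The block changed no other call than those to a pass: 179 of 240 results on single genes of the 40 kept their side and 61 passed newly.

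DESeq2 called 160 genes for thrombin, 953 for resting platelets with 2 of the 40, and 1880 for the interaction with 4 of the 40. Fitting 2 groups alone called 11 and 188 genes for thrombin and resting platelets. With no filter on low counts, 335 genes passed for resting platelets, and 2001 for activated against resting platelets with 2 of the 40. Scaling by totals alone left 1 of the 40 in the interaction, among 1694 genes called. Leaving out a library or a replicate number gave 4 to 27 genes and 0 of the 40 for thrombin, 58 to 550 and 0 to 2 for resting platelets, and 2522 to 3727 and 5 to 9 for activated platelets. It gave 2422 to 3798 and 5 to 12 against thrombin, 972 to 2256 and 2 to 4 against resting platelets, and 264 to 1672 and 1 to 5 for the interaction. Without Pf4, platelet markers with resting platelets exceeded vehicle by 0.00199% of counts (exact two-sided permutation p = 0.0286). No result on a single gene of the 40 changed direction while called, under the alternatives run. The cause of these changes was not tested. With 4 libraries a group, the 95% intervals of mitosis genes reached from -0.48 to 0.52 over the 5 comparisons of 2 groups and from -0.52 to 0.73 in the interaction, and small changes inside them were not detectable without the block.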
